A study of Mus musculus with 12 samples.

Results

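The clathrin coat and adaptor genes described here are 10 genes of the mouse amygdala: the clathrin chains Clta, Cltb and Cltc, the subunits Ap2a1, Ap2a2, Ap2b1, Ap2m1 and Ap2s1 of the AP-2 adaptor complex, the assembly protein gene Picalm and the dynamin gene Dnm1. They were found by symbol in the GENCODE M21 annotation, where each of the 10 matched 1 of the 47729 rows of deposited estimated counts. They were selected on the expression differences between the anxiety groups, because Cltb and Dnm1 stand in the list that the study drew from that contrast, and the other 8 were added as partners of the same coat. Group values of these genes are therefore given as a description without a test, and the tests below concern the behavior of each mouse.

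Clathrin-mediated endocytosis takes membrane and receptors into the cell in small coated vesicles. Clathrin heavy chains with bound light chains build the outer lattice, AP-2 links the lattice to the plasma membrane and to cargo, and dynamin, a GTPase, cuts the neck of the finished bud. At nerve terminals the same machinery recovers synaptic vesicle membrane after transmitter release, and in the amygdala, as in other brain regions, it also removes neurotransmitter receptors from the postsynaptic surface.

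Each library came from the bilateral amygdala of 1 untreated, age-matched female C57/BL6 mouse, an inbred strain whose animals are nearly identical genetically. Between 9 and 11 weeks of age the mice were tested in a maze with open and closed arms (elevated plus maze, EPM), in a box with a lit and a dark chamber (LD) and with a stranger mouse (social interaction test, SIT). The labels place 3 mice as less anxious (mice 3, 7 and 12), 4 as anxious (mice 1, 4, 8 and 11) and 4 as more anxious (mice 2, 6, 9 and 10), whereas mouse 5 has no anxiety state. The study removed mouse 5 as an outlier of its principal component analysis, and it is left out here except where its inclusion is named. The 3 groups share strain, sex, handling and a single sequencing run, carry no engineered allele and received no agent. They were made by the study from tertiles of the second principal component of these same libraries, so they are classes of expression profile chosen for their relation to LD and EPM, not independent behavioral classes. The label of mouse 6, more anxious, runs against its LD and EPM behavior: of the 11 mice it had the most time in the light (46.6%), distance in the light (41.9%) and open-arm time (29.2%), and only mouse 12 made more than its 36 entries. On the second component as recomputed here mouse 6 scored -0.32, below the anxious mice 1 (4.92) and 11 (2.98).

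Libraries held between 31745630 and 45142355 estimated counts (median 36578626), and the 10 genes had between 3680 and 49162 in each mouse, for which counting error was at most 1.65%. All 8 neuron markers and all 6 markers of amygdala nuclei had reads in the 11 mice. Summed astrocyte markers ran from 907 to 1118 CPM (counts scaled to a common library size) in less anxious and from 682 to 844 CPM in more anxious mice, and summed endothelial markers from 102 to 148 CPM and from 76.0 to 95.8 CPM, with no overlap in either list. Of the single markers in those lists, 1 of 5 for astrocytes and 0 of 4 for endothelial cells were lower without overlap, and none of these markers was at 0 in any mouse. Summed pituitary markers were also lower, at 3.08 to 3.86 CPM in less anxious and 1.14 to 1.80 CPM in more anxious mice (2 of 4 markers without overlap). In anxious mice the pituitary sum ran from 1.88 CPM to 53.9 CPM, the latter in mouse 4. Only 1 of the 4 pituitary markers had reads in all 11 mice. Oligodendrocyte, oligodendrocyte precursor, microglia and choroid plexus sums overlapped. So did the summed markers of amygdala nuclei, which ran from 493 to 706 CPM in less anxious and more widely, from 308 to 719 CPM, in more anxious mice. Summed neuron markers overlapped, at 4746 to 5064 CPM and 4980 to 6085 CPM, with 2 of 8 markers higher without overlap. The GC trend of a library was taken as the log2 difference between genes of 60% and 42% GC. Its median was -0.20 in less anxious, -0.018 in anxious and 0.13 in more anxious mice. The ranges overlapped, from -0.34 to 0.081 in less anxious and from -0.021 to 0.25 in more anxious mice. The part of these measures in the group values below was not tested. In such bulk tissue, more cells of a type and more RNA per cell cannot be told apart.

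The upstream sequences of the members whose values separated the less from the more anxious mice are shown first, together with Ap2b1, which did not separate but shares a motif with Cltb. Each is the 250 bases before a RefSeq start (GRCm38.p6), written 5′ to 3′ on the strand of the gene. Capitals mark 3 motifs searched on both strands: TGACGTCA, the palindromic cAMP response element, GGGCGG, the GC box, which reads CCGCCC on the opposite strand, and CCAAT, which there reads ATTGG. Clta is listed with 2 starts, and both are printed.
Cltb, chr13:54611374-54611623, minus strand: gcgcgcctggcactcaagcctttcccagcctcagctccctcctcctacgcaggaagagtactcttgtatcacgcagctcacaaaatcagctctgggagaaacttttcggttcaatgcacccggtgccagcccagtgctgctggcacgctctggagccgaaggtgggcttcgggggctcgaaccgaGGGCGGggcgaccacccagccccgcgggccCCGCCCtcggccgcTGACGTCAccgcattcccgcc
Dnm1, chr2:32353330-32353579, minus strand: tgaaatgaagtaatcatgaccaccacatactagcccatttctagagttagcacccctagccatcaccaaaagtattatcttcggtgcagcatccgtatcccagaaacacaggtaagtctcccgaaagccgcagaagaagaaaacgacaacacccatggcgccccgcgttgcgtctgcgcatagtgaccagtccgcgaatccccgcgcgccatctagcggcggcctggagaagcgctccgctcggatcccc
Ap2s1, chr7:16738194-16738443, plus strand: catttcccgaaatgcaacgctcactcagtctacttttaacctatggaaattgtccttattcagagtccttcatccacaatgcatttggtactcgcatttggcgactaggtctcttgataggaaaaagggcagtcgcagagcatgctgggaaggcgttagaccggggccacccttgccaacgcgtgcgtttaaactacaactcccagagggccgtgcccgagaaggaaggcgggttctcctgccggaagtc
Clta, chr4:44004193-44004442, plus strand: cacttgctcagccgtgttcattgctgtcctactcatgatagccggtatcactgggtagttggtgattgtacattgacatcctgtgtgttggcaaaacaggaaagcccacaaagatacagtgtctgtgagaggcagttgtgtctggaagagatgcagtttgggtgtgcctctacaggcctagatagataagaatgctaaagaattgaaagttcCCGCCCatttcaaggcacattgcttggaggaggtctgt
Clta, chr4:44012420-44012669, plus strand: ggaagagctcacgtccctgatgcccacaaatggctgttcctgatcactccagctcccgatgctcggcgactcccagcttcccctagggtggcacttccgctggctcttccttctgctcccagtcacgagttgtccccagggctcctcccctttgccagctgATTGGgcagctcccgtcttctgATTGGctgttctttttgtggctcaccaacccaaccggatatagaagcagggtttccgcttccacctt
Ap2b1, chr11:83302447-83302696, plus strand: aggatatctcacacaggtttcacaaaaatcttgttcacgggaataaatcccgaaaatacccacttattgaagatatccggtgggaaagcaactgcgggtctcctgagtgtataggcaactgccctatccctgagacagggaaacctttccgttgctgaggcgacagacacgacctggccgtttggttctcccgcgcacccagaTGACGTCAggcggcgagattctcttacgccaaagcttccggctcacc

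TGACGTCA stood before 2 of the 10 genes, Cltb and Ap2b1, with its last base 14 and 40 bases from the start, and in 1.55% of the 32851 RefSeq windows of the same length. GGGCGG stood before 5 genes (Clta, Cltb, Ap2a1, Ap2a2 and Picalm) against 32.7% of windows, and CCAAT before 3 (Clta, Ap2a1 and Ap2a2) against 33.8%. Before Dnm1 and Ap2s1 none of the 3 letter strings occurred in this window. A match is a string of letters and not a measured binding site. The 4 genes that separated the groups held none of the 3 strings in common.

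In GENCODE M21 (GRCm38) all members are protein coding. Cltb (ENSMUSG00000047547) lies at chr13:54592401-54611344 and Clta (ENSMUSG00000028478) at chr4:44004452-44032846. The heavy chain gene Cltc lies at chr11:86694351-86757565. Of the AP-2 genes, Ap2a1 is at chr7:44900373-44929496, Ap2a2 at chr7:141562173-141633011, Ap2b1 at chr11:83299024-83405035, Ap2m1 at chr16:20535478-20544909 and Ap2s1 at chr7:16738410-16749294. Picalm lies at chr7:90130213-90213465 and Dnm1 at chr2:32308471-32353338. Exons of Ap2a1 and Ap2a2 overlap Fuz and Gm16982 on the opposite strand. Since the sources used here do not state whether reads were counted by strand, a share of the reads of these 2 genes may belong to their neighbors.

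All members were expressed well above the typical gene. Per kilobase of the longest transcript, Ap2m1, the medium AP-2 subunit that reads tyrosine-based sorting signals, had the highest mean level with 215 ± 62.3 CPM per kb (SD, n = 11), and Dnm1, the dynamin of neurons, followed with 209 ± 28.4. Ap2s1, the small AP-2 subunit, was at 125 ± 17.4 CPM per kb. Next came the light chain gene Clta with 80.8 ± 8.15 and the heavy chain gene Cltc with 74.4 ± 4.74 CPM per kb. The large AP-2 subunit genes Ap2a1, Ap2b1 and Ap2a2 were at 64.5 ± 7.49, 55.9 ± 4.42 and 44.3 ± 4.35 CPM per kb. Cltb, the second light chain gene, was at 43.9 ± 6.34 and Picalm at 17.0 ± 1.27 CPM per kb. Picalm lay above 86.0% and Ap2m1 above 99.2% of the tested genes on this scale. Of the 9 pairs of neighbors in this order, 7 overlapped over the 11 mice, and only Ap2s1 with Clta and Cltb with Picalm did not. The order rests on 1 transcript length per gene.

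The light chains Clta and Cltb bind the heavy chain and regulate lattice assembly. Cltb was expressed at 102, 128 and 116 CPM in the less anxious mice 3, 7 and 12. In the anxious mice 1, 4, 8 and 11 it was at 141, 148, 155 and 119.6 CPM, and in the more anxious mice 2, 6, 9 and 10 at 161, 149.5, 151 and 164 CPM. The means of Cltb were 115 ± 12.8 (SD, n = 3), 141 ± 15.2 (n = 4) and 156 ± 7.15 CPM (n = 4), the lowest more anxious mouse lay above the highest less anxious mouse, and the anxious mice overlapped both. The model followed the study in taking the first principal component (PC1) as a covariate. In this fit the edgeR log2 fold change of Cltb between more and less anxious mice was 0.41 (SE 0.095), the highest of the 10 genes.

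Clta was expressed at 131, 131 and 121 CPM in less anxious mice 3, 7 and 12 and at 133, 132, 148 and 129 CPM in anxious mice 1, 4, 8 and 11. The more anxious mice 2, 6, 9 and 10 had 136, 138, 173 and 149 CPM. The more anxious mice again lay above the less anxious mice without overlap, by a narrower margin than in Cltb. The means of Clta were 128 ± 5.65, 135 ± 8.28 and 149 ± 16.8 CPM, and its log2 fold change was 0.23 (SE 0.10), but 0.13 without mouse 9. Cltc, whose heavy chain forms the legs of the clathrin triskelion, did not separate the groups. It stood at 511, 439 and 504 CPM in less anxious, 481, 513, 497 and 485 CPM in anxious and 419, 515, 474 and 495 CPM in more anxious mice, in the same order of mice. Its log2 fold change was -0.020 (SE 0.10), and it had the smallest coefficient of variation of the members over the 11 mice, 6.37%.

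Dnm1 was at 768, 895 and 764 CPM in the less anxious mice 3, 7 and 12. It was at 905, 1043, 1078 and 849 CPM in the anxious mice 1, 4, 8 and 11, and at 1102, 1071, 1108 and 983 CPM in the more anxious mice 2, 6, 9 and 10. The means of 809 ± 74.6, 969 ± 109 and 1066 ± 57.5 CPM followed the order of the groups, and less and more anxious mice did not overlap. The log2 fold change of Dnm1 was 0.37 (SE 0.097). With an offset for the GC trend of each library it was 0.27, and that of Cltb was 0.37.

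Of the AP-2 genes, only Ap2s1 separated less from more anxious mice. Ap2s1 was at 117, 120.4 and 107 CPM in less anxious mice 3, 7 and 12 and at 134, 137, 148 and 124 CPM in anxious mice 1, 4, 8 and 11. In the more anxious mice 2, 6, 9 and 10 it was at 129, 126, 177 and 128 CPM. Both the anxious and the more anxious mice lay above all less anxious mice, and mouse 9 stood alone at the top. The log2 fold change of Ap2s1 was 0.29 (SE 0.12), but 0.12 without mouse 9.

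The other AP-2 genes overlapped between the groups. Ap2m1 varied most of all members, with a coefficient of variation of 28.9%. It was at 546, 757 and 456 CPM in less anxious, 598, 455, 917 and 475 CPM in anxious and 629, 992, 609.8 and 520.5 CPM in more anxious mice, in the order of mice given above. Its highest values, in mice 6, 8 and 7, fell in all 3 groups and in the libraries with the highest PC1 scores, 24.0, 26.5 and 18.8. The log2 fold change of Ap2m1 was 0.091 (SE 0.19) with PC1 as a covariate and 0.23 without it. The part of whatever PC1 measures was not tested.

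Ap2a1 and Ap2a2 encode alternative α subunits, and Ap2b1 the β subunit whose appendage binds clathrin. Ap2a1 was at 184, 237 and 209 CPM in less anxious, 197, 252, 265 and 202 CPM in anxious and 222, 245, 234 and 202 CPM in more anxious mice. Its log2 fold change of 0.055 (SE 0.094) became -0.089 with the GC offset. Ap2a2 ranged from 184 to 241 CPM in less anxious, from 198 to 212 CPM in anxious and from 179.9 to 238 CPM in more anxious mice. Ap2b1 was at 322, 354 and 319 CPM in less anxious, 314, 306, 295 and 339 CPM in anxious and 259.9, 312, 336 and 305 CPM in more anxious mice, and its log2 fold change was -0.12 (SE 0.10). In each of these genes the ranges of the 3 groups overlapped.

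Picalm, whose product binds membrane lipids and sorts synaptic vesicle proteins into the coat, was at 146, 133 and 135 CPM in less anxious, 158, 137, 131 and 128 CPM in anxious and 155, 130.5, 134 and 147 CPM in more anxious mice. The values of Picalm in the 3 groups covered nearly the same range, with a log2 fold change of 0.056 (SE 0.098).

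**Figure D1:**
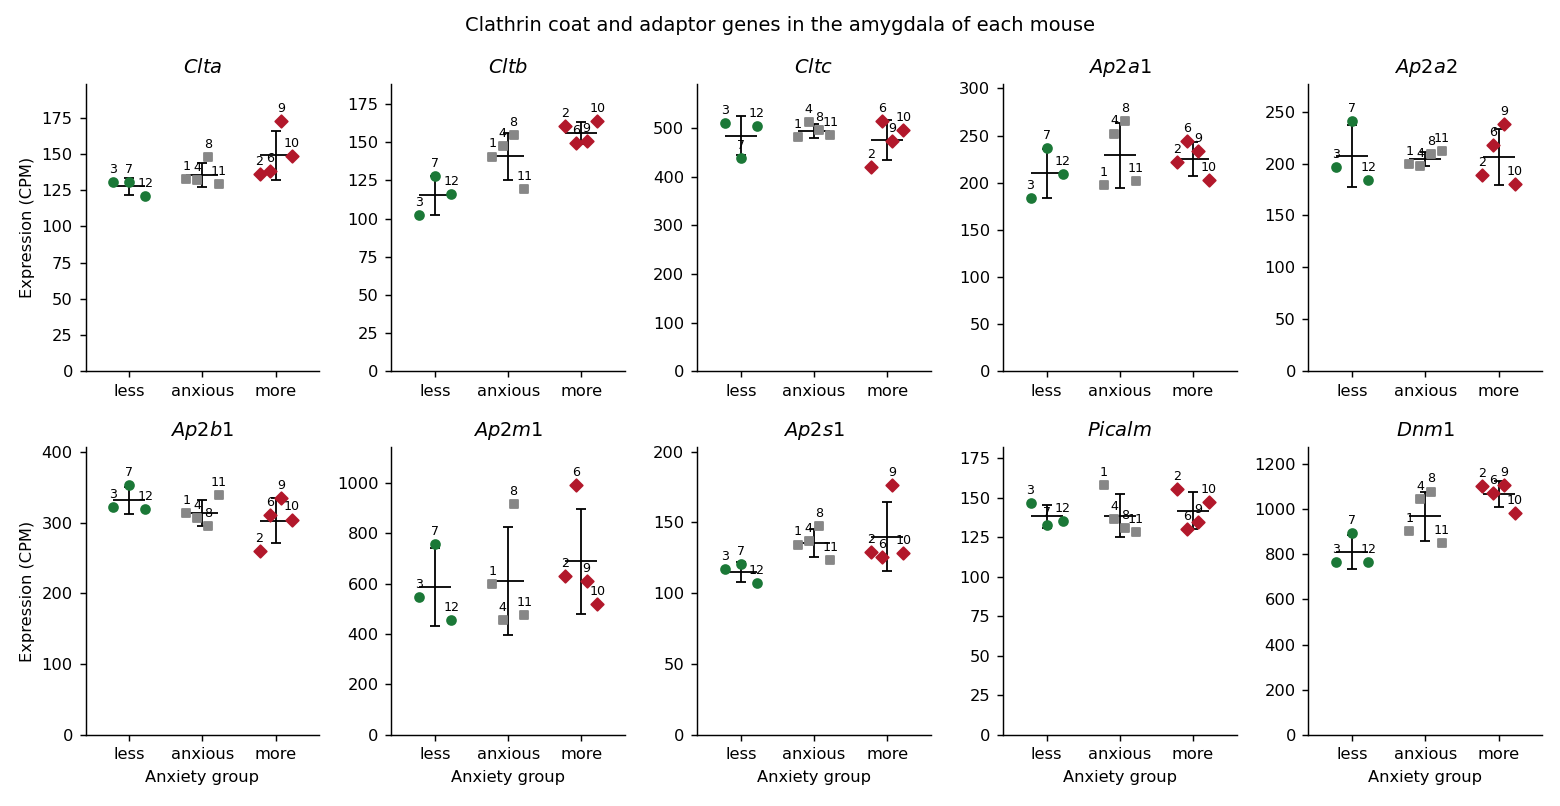
Expression in CPM (vertical axis from 0) of the 10 genes in each mouse of the 3 anxiety groups; points carry the mouse number, and bars give the mean ± SD of 3, 4 and 4 mice. In Clta, Cltb, Ap2s1 and Dnm1 every more anxious mouse lies above every less anxious mouse, whereas the other 6 genes overlap.

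In sum over the members, 4 of 10 (Clta, Cltb, Ap2s1 and Dnm1) were higher in more than in less anxious mice without overlap and 0 of 10 lower. Among 15891 genes of at least 1 CPM, 5.27% were higher and 4.76% lower in this way, and among the 2066 genes of at least 100 CPM 6.97% were higher. Since the members were selected on this contrast, nothing is read from that comparison or from those between neighboring groups. Between anxious and less anxious mice 1 of 10 (Ap2s1) was higher without overlap, against 2.96% of genes, and between more anxious and anxious mice 0 of 10, against 1.29%.

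The 4 separating genes had longest transcripts of 1054 to 4605 bases with 54% to 57.4% GC, and the 6 overlapping genes of 2937 to 8209 bases with 42.1% to 59.3% GC. Ap2a1, the member of highest GC content, was among the overlapping genes. The median log2 fold change of the 10 members was 0.073, beside 0.0037 over all tested genes. Since this too is the selecting contrast, nothing is read from the difference. Without mouse 6 the log2 fold changes of the separating genes were 0.45 for Cltb, 0.39 for Dnm1, 0.33 for Ap2s1 and 0.26 for Clta, and that of Ap2m1 was -0.00027.

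**Figure D2:**
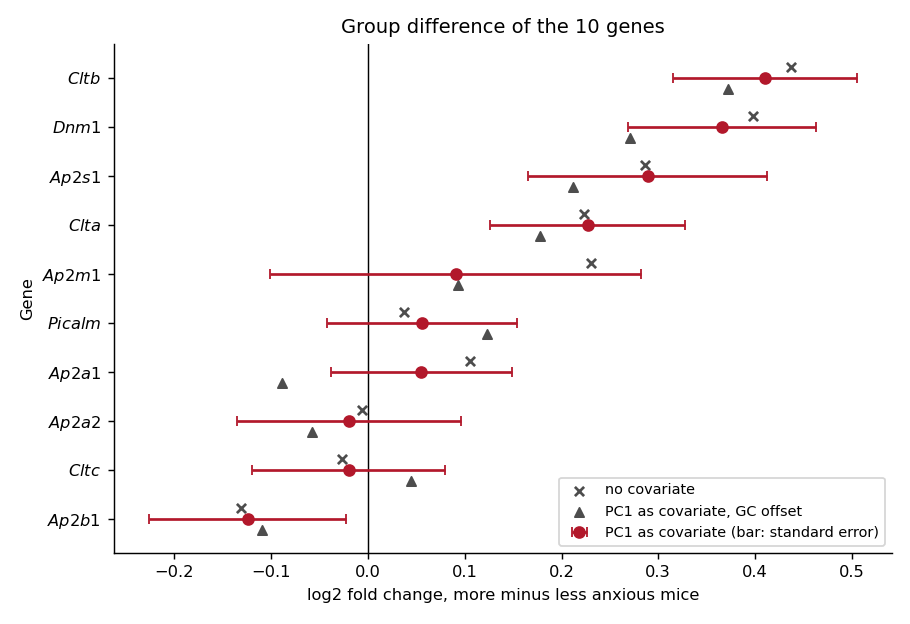
The log2 fold change of each gene between more and less anxious mice (horizontal axis; positive means higher in more anxious mice) from the fit with PC1 as a covariate, with its standard error as a bar, beside the fit without the covariate (crosses) and with a GC offset (triangles). Cltb, Dnm1, Ap2s1 and Clta stay at 0.18 or above in these 3 fits, and Ap2m1 moves from 0.091 to 0.23 without the covariate.

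The tests that the design allows are those of behavior. The measures entered the selection of the members only indirectly, since the groups follow a component that the study chose for its relation to LD and EPM, so the LD and EPM fits are not independent of the selection. Each gene was fitted with edgeR against 7 measures as standardized numbers: percent time and percent distance in the light (LD), percent open-arm time and total entries (EPM), and the box:zone ratio after 3, 5 and 10 min (SIT), which sets time close to the stranger mouse against time at a distance. Lower values in LD and EPM are conventionally read as more anxious. Fits held 11 mice, and 10 for the ratio at 3 min, where mouse 4 has no value. The SD over mice was 9.76 percentage points (LD time), 7.89 (LD distance) and 9.49 (open arms), and 9.85 entries. The SIT ratio had an SD of 0.490, 0.472 and 0.613 at its successive times.

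In none of the 70 fits of a member to a measure did the adjusted p pass 0.05, and the smallest was 0.604. Among all genes, the adjusted threshold was passed by 0.00742% for the time spent in the light and 0% for each of the other LD and EPM measures. For the SIT ratio the share passing was 0.015% (3 min), 0.0111% (5 min) and 0.0223% (10 min). At an unadjusted p below 0.05, 2 of 10 members were found for the ratio at 3 min, where 7.65% of genes were, and 0 of 10 for the other 6 measures. With all 11 mice the LD shares of all genes were 3.55% (time) and 5.8% (distance), in EPM 5.84% (open arms) and 6.97% (entries), and in the SIT 6.56% (5 min) and 8.05% (10 min). Without the more anxious mouse 6 the shares of all genes were 10.1% for time in the light, 10.8% for distance in the light and 6.74% for open-arm time. In these fits 4 members had an unadjusted p below 0.05 for time in the light and 4 for open-arm time (Ap2s1, Clta, Cltb and Dnm1 in both) and 3 for distance in the light (Ap2s1, Cltb and Dnm1), with a smallest edgeR adjusted p of 0.211. DESeq2's likelihood ratio test (LRT) likewise gave 0 members at the adjusted threshold.

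The 2 members with an unadjusted p below 0.05 were Clta and Ap2s1. Clta was higher by 0.10 on the log2 scale per SD of the box:zone ratio at 3 min (SE 0.043, edgeR adjusted p = 0.604), and Ap2s1 by 0.12 (SE 0.054, adjusted p = 0.638). Both slopes leaned on the more anxious mouse 9, which had the highest ratio (1.84) and the highest level of each gene. Without it they fell to 0.042 for Clta and 0.029 for Ap2s1. The less anxious mouse 3, with a ratio of 1.70, had 131 CPM of Clta and 117 CPM of Ap2s1, below the median of the 11 mice for either gene. At 10 min the slopes of Clta and Ap2s1 were 0.022 (SE 0.048) and 0.0026 (SE 0.060).

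Cltb, Dnm1, Clta and Ap2s1 had negative slopes on all 4 LD and EPM measures, and none was called. For open-arm time the slope was -0.11 for Cltb (SE 0.055, edgeR adjusted p = 0.859). For Ap2s1 it was -0.11 (SE 0.051, edgeR adjusted p = 0.854). For distance in the light the slope of Dnm1 was -0.10 (SE 0.055, edgeR adjusted p = 0.854). Cltc and Ap2b1 had positive slopes on the same 4 measures, between 0.020 and 0.060 per SD, each with a standard error of 0.039 to 0.045. Ap2m1 had the widest standard errors of all members, from 0.099 to 0.12. Over the 10 members the median slope ran from -0.034 (distance in the light) to 0.021 (ratio at 3 min), and over all tested genes from -0.0092 to 0.0037.

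**Figure D3:**
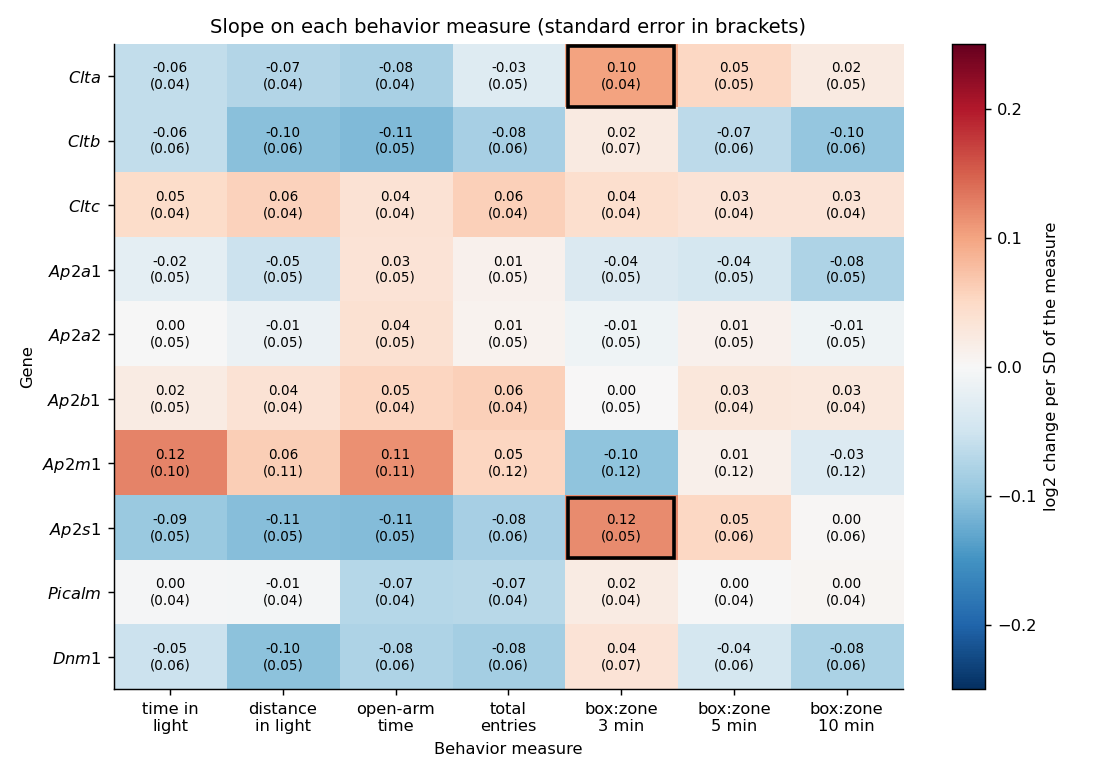
Slope of each gene (rows) on each behavior measure (columns), as the log2 change per SD of the measure with its standard error in brackets; red is positive and blue negative, and black frames mark an unadjusted p below 0.05. Only Clta and Ap2s1 on the box:zone ratio at 3 min are framed, with slopes of 0.10 and 0.12, and no cell passed the adjusted threshold.

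Ratios within a library need no scaling between mice and were set against behavior for 3 sets of paralogs. Cltb and Clta give alternative light chains of the same coat. The ratio of Cltb to Clta was 0.781, 0.977 and 0.960 in the less anxious mice 3, 7 and 12. It was 1.06, 1.12, 1.05 and 0.926 in the anxious mice 1, 4, 8 and 11, and 1.18, 1.08, 0.873 and 1.10 in the more anxious mice 2, 6, 9 and 10. All 3 pairs of groups overlapped. Less and more anxious mice did so only through mouse 9, in which Clta was at its highest. The ratio of Ap2a1 to Ap2a2, the alternative α subunits, averaged 1.02 ± 0.103, 1.12 ± 0.176 and 1.10 ± 0.0818 in less anxious, anxious and more anxious mice and overlapped as well.

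Dnm1 was compared with the sum of Dnm2, the ubiquitous dynamin, and Dnm3, its relative in brain and testis. The ratio was 4.09, 4.63 and 3.70 in the less anxious mice 3, 7 and 12. In the anxious mice 1, 4, 8 and 11 it was 4.11, 5.25, 5.91 and 4.64, and in the more anxious mice 2, 6, 9 and 10 it was 5.60, 5.64, 6.70 and 5.43. More and less anxious mice did not overlap, and their mean log2 ratios differed by 0.50. This again is the selecting contrast for Dnm1. Dnm3 was at 151, 138 and 156 CPM in the less anxious and 137, 142, 111 and 124 CPM in the more anxious mice, and overlapped.

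Over 21 relations of 3 ratios with 7 measures, 0 passed an adjusted p of 0.05 in two-sided permutation tests. The largest Pearson r in size was that of the ratio of Cltb to Clta with the box:zone ratio at 10 min, with r = -0.687 (permutation p = 0.0196, adjusted p = 0.235) and Spearman rho = -0.582 (permutation p = 0.0663, adjusted p = 0.348) over 11 mice. Without mice 2 and 3, the farthest from the median of that measure, r was -0.125, so the relation rested on them. At 5 min r was -0.676 (permutation p = 0.0224, adjusted p = 0.235) and rho -0.600 (permutation p = 0.0578, adjusted p = 0.348), and r was -0.169 without the same 2 mice.

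The ratio of Dnm1 to the other dynamins with distance in the light gave r = -0.604 (permutation p = 0.0497, adjusted p = 0.348) and rho = -0.591 (permutation p = 0.0592, adjusted p = 0.348). Without mice 2 and 6, the farthest from the median of that measure, r was -0.925. With time in the light the same ratio gave r = -0.395 (permutation p = 0.230, adjusted p = 0.698) and the largest rho in size, -0.618 (permutation p = 0.0467, adjusted p = 0.348). Mouse 6, whose label and behavior disagree as described above, had the most distance in the light and a ratio of 5.64. Without mouse 6 alone, 2 of the 21 relations passed, those of the Dnm1 ratio with time and with distance in the light (smallest adjusted permutation p = 0.0169). Dnm1 was selected on the groups, and these follow a component that the study chose for its relation to LD and EPM. The 2 relations are therefore not independent of the selection, and leaving out the mouse whose label and behavior disagree brings groups and LD measures closer together. Without any other single mouse 0 of the 21 passed, and the smallest adjusted permutation p ran from 0.128 without mouse 12 to 0.892 without mouse 3, with 0.510 without mouse 2 and 0.423 without mouse 9.

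**Figure D4:**
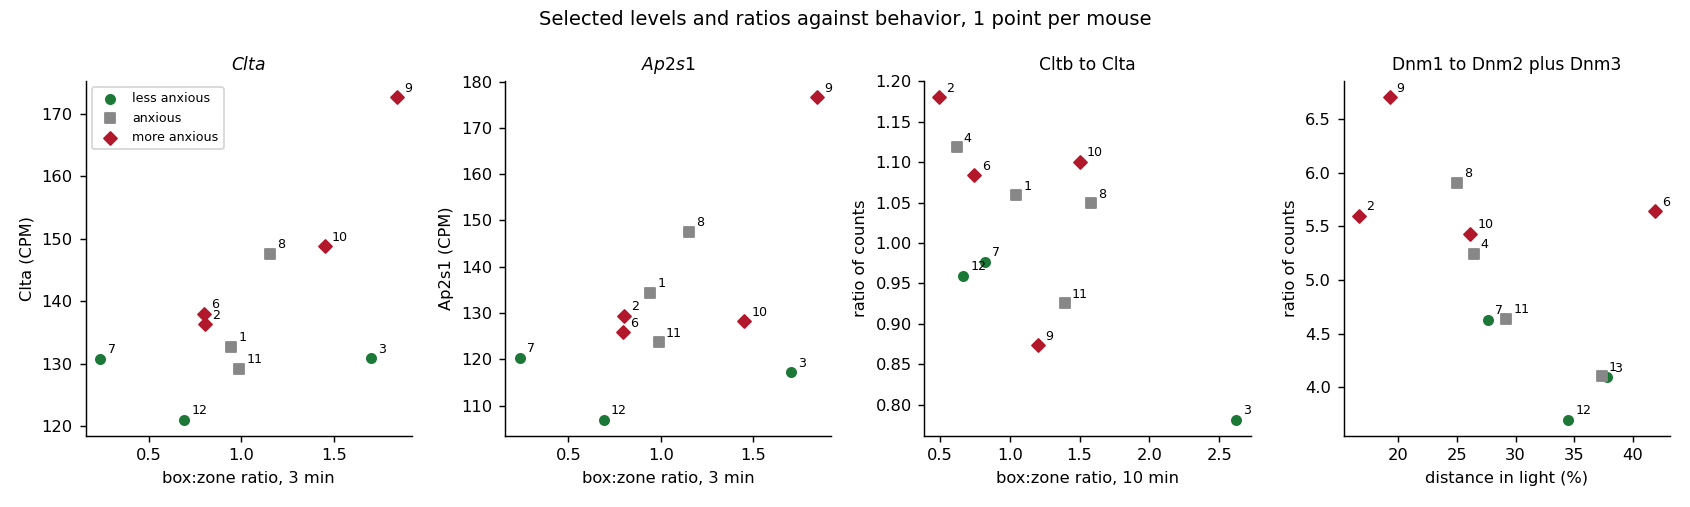
Left to right: Clta and Ap2s1 in CPM against the box:zone ratio at 3 min (10 mice), the ratio of Cltb to Clta against the box:zone ratio at 10 min, and the ratio of Dnm1 to Dnm2 plus Dnm3 against percent distance in the light (11 mice each); colors and symbols mark the groups, numbers the mice, and the vertical axes do not start at 0. Mouse 9 is the highest point of Clta, Ap2s1 and the Dnm1 ratio, and mouse 6 stands apart at 41.9% in the rightmost panel.

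The members did not vary as a unit over the 11 mice. Of the 45 pairs, 23 had a positive and 22 a negative Pearson r of log2 CPM, with a median of 0.155. The pairs share libraries, depth and base composition, so r is given as a description. The highest r was 0.908 between Cltb and Dnm1 (Spearman rho 0.827), followed by 0.888 between Clta and Ap2s1 (rho 0.755). After the group means were removed, which was added after the data were seen, r of these pairs stood at 0.706 and 0.926. That of the 2 light chains fell from 0.599 to 0.156. By Spearman rho over the 11 mice the order differed. The 2 light chains were then at 0.845, as were Ap2s1 and Dnm1, the highest rho of the 45 pairs. The heavy chain gene Cltc had its highest r with any member at 0.225 (Ap2b1), and Clta and Cltc stood at -0.077. The lowest r were -0.552 between Cltb and Ap2b1 and -0.550 between Ap2a2 and Picalm.

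**Figure D5:**
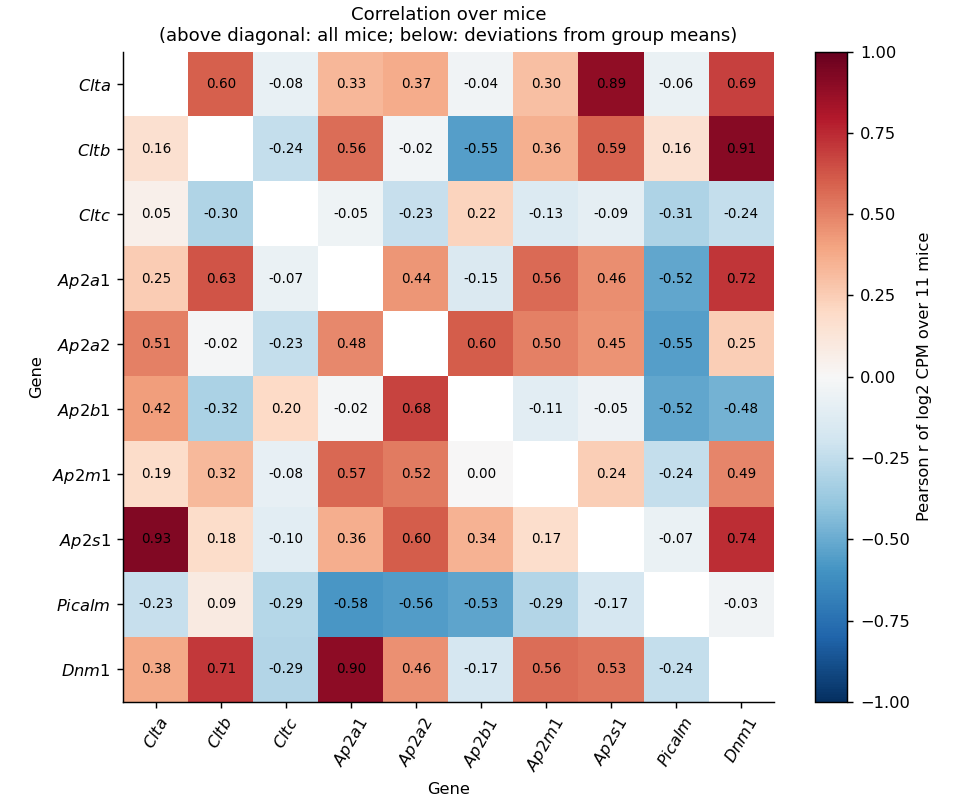
Pearson r of log2 CPM between pairs of the 10 genes over 11 mice, above the diagonal for all mice and below it for deviations from the group means; red is positive and blue negative. Cltb with Dnm1 (0.908) and Clta with Ap2s1 (0.888) stand out above the diagonal, and Clta with Cltb drops from 0.599 above to 0.156 below it.

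Among 10354 genes of at least 10 CPM, those most like Cltb were Vegfb (Pearson r = 0.976), Aes (0.973), Dnajc4 (0.960), Prelid1 (0.958) and Ccdc124 (0.950). Those most like Dnm1 were Ccdc124 (0.980), Lin37 (0.980), Uqcrq (0.970), Scaf1 (0.969) and Carmil2 (0.963). Ccdc124 stood in both lists, and no member stood in either. For Ap2m1, added after its spread was seen, the closest were Ncbp2 (0.965), Polr2b (0.939), Psmd4 (0.936), Nsg2 (0.935) and Lars2 (0.911). These likenesses are over the same 11 libraries and carry no test.

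The wider machinery was described from a list of 42 other endocytosis genes, of which 41 reached 1 CPM. Between less and more anxious mice 2 of them were higher without overlap and 4 lower, where 5.27% and 4.76% of all genes were. The genes, named after their values were seen, were Fcho1, which marks nascent coated pits, and the β-arrestin gene Arrb2 among the higher, and Eps15, Arrb1, Reps2 and Dnajc6, the auxilin gene, among the lower. Fcho1 averaged 78.5 ± 7.44 CPM in less anxious and 98.5 ± 6.05 CPM in more anxious mice, and is also in the study's list from these mice. The endocytic scaffold gene Eps15 averaged 201 ± 18.8 and 137 ± 33.9 CPM. The 2 β-arrestin genes went in opposite directions, with Arrb2 at 41.1 ± 5.38 and 52.3 ± 2.50 CPM and Arrb1 at 249 ± 24.8 and 196 ± 12.6 CPM.

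Of the 4 most abundant genes of the list, none separated the groups. Hspa8, the chaperone that uncoats clathrin vesicles, averaged 1702 ± 322 CPM in less anxious and 1721 ± 293 CPM in more anxious mice. Aak1, a kinase of the medium AP-2 subunit, was at 409 ± 31.7 and 367 ± 18.7 CPM, Pacsin1 at 303 ± 44.5 and 353 ± 19.2 CPM, and Snap91, the neuronal relative of Picalm, at 342 ± 101 and 335 ± 74.2 CPM. The median log2 fold change of the list was -0.0030. In edgeR's fits to the 7 behavior measures 0 of 42 genes passed the adjusted threshold, and between 0 (time in the light) and 5 (ratio at 3 and at 10 min) had an unadjusted p below 0.05. Per measure this was 0% to 11.9% of the list, beside 3.55% to 8.05% of all genes.

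The 23 subunits of the AP-1, AP-3, AP-4 and AP-5 adaptors, which act at internal membranes, served as the nearest relatives of AP-2. Of the 22 that reached 1 CPM, Ap1m1 and Ap3b2 were higher without overlap and 0 lower, where 5.27% and 4.76% of all genes were. Ap1m1 averaged 63.8 ± 2.40 CPM in less anxious and 71.8 ± 1.40 CPM in more anxious mice, and Ap3b2, a neuronal AP-3 subunit, 153 ± 12.7 and 169 ± 4.66 CPM. Ap1s1, the small subunit of AP-1, averaged 236 ± 24.2 and 253 ± 54.7 CPM and overlapped, unlike Ap2s1. Ap1b1 at 163 ± 17.5 and 176 ± 26.6 CPM and Ap3d1 at 165 ± 8.62 and 167 ± 9.11 CPM overlapped too. The median log2 fold change of these subunits was 0.032, and 0 of 23 passed the adjusted threshold for any of the 7 measures in edgeR, with 1 (time in the light, and the ratio at 5 and at 10 min) to 3 (open-arm time) below an unadjusted p of 0.05. These were 4.35% to 13% of the subunits, again beside 3.55% to 8.05% of all genes.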

How the data were processed

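Amygdala mRNA of 12 mice was sequenced as stranded libraries (75 bp, single-end). The authors trimmed reads where necessary, checked alignments to mm10 with STAR, quantified transcripts with Salmon and summed them to genes with tximport. The submitters' notes also name CASAVA, and versions are not given in the sources used here. The authors deposited whole-number estimated counts (expected counts) without normalization. Groups and behavior came from the labels. The members and gene lists were chosen with earlier results of these data known.

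GENCODE M21 held 47310 of 47729 identifiers (99.1%). Genes with at least 10 reads over 11 mice were fitted with edgeR 4.0.16 (R 4.3.3; TMM, robust quasi-likelihood), with Benjamini-Hochberg adjustment over all genes, in place of the study's DESeq2 test, which was run as an alternative (1.42.0). The group fit had PC1 of the variance-stabilized counts as a covariate, and the behavior fits had none. CPM used TMM factors, and log2 CPM a prior count of 2. Ratios were tested with 100000 permutations (scipy 1.17.1). Named genes were the 10 members, those with an unadjusted p under 0.05 per measure, the 5 genes most like Cltb and Dnm1, and up to 4 of each list by mean CPM. The fits were tested on simulated data with changes larger than the slopes and fold changes given above. That test does not show whether changes of the size seen here would be called. No 2 of the 66 library pairs agreed within sampling noise (mean chi-square per gene at least 17.5). Separate animals gave 1 library each. One annotation item is not reported here.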

Additional observations from a re-analysis of the deposited data

Results flagged for a closer look

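Of 26 groups of 4 mice examined (the 10 genes and 3 ratios in anxious and in more anxious mice), 2 held a mouse far from the other 3, where about 1 in 20 would do so by chance. Ap2s1 was at 177 CPM in the more anxious mouse 9 and between 126 and 129 CPM in the other 3 more anxious mice. The ratio of Dnm1 to Dnm2 plus Dnm3 was 6.70 in the same mouse and between 5.43 and 5.64 in the others. Groups of 3 less anxious mice were too small for this examination.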

How the results depend on the processing

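DESeq2's likelihood ratio test called 2 members across the groups (0.594% of all genes) and edgeR 0 (0.00742%); the 2 are Cltb and Dnm1, which entered through that same test on these mice, so nothing is read from the count. With each mouse left out in turn, the log2 fold change between more and less anxious mice ran from 0.36 to 0.45 for Cltb, 0.28 to 0.42 for Dnm1, 0.12 to 0.35 for Ap2s1, 0.13 to 0.27 for Clta, -0.13 to 0.038 for Cltc, -0.18 to 0.0052 for Ap2b1, -0.068 to 0.089 for Ap2a1, -0.16 to 0.12 for Ap2a2, -0.049 to 0.35 for Ap2m1 and 0.011 to 0.12 for Picalm. The lowest value of Cltc and the highest of Ap2b1 came without less anxious mouse 7, and the lowest of Ap2s1 and Clta without more anxious mouse 9; the cause was not tested. Ap2b1 was lower without overlap in more than in less anxious mice when mouse 9 was left out. With the GC offset Cltc moved from -0.020 to 0.044 and Ap2a1 from 0.055 to -0.089. Paralog relations past the adjusted threshold numbered 0 to 2 with a mouse left out, with 2 only without mouse 6. Those 2, of the Dnm1 ratio with the LD measures, are not independent of the selection of Dnm1. For the box:zone ratio at 3 min, the members at an unadjusted p under 0.05 were Ap2m1, Ap2s1, Clta and Dnm1 with PC1 as a covariate (8.95% of all genes) and none without a count filter or without mouse 6, 8, 9, 11 or 12. For open-arm time, where there were none, they were Ap2s1, Clta, Cltb and Picalm with the GC offset (6.67% of all genes), Ap2s1, Cltb and Dnm1 with PC1 (8.27%), Ap2s1 and Cltb with ranks (6.25%), Picalm with DESeq2 (4.55%) and Ap2s1 without a count filter (7.49%). With ranks they were also Ap2s1 and Clta for time (6.07%) and Ap2s1, Cltb and Dnm1 for distance in the light (6.59%). Single members appeared for total entries (Picalm, GC offset, 7.60%), distance in the light (Ap2s1, no count filter, 7.31%) and the ratio at 5 min (Ap2m1, PC1, 5.62%). With a mouse left out they numbered 0 to 4 for time in the light and open-arm time, 0 to 3 for distance in the light, 0 to 1 for total entries, 0 to 2 at 5 min and 0 to 1 at 10 min, with 2.78% to 10.1%, 4.34% to 7.07%, 4.38% to 10.8%, 3.74% to 7.92%, 3.49% to 9.45% and 2.84% to 10.2% of all genes in the same order. No member passed the adjusted threshold for any measure under the alternatives run: other size factors, count filters and tests, fits that were not robust, the GC offset, PC1, ranks, mouse 5 included and each mouse left out. No paired analysis was possible because the labels give the groups no shared replicate numbers.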

Other observations

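The library of mouse 5, which the labels put in no anxiety group and the study left out, stood apart from the others in the study's principal component analysis. Mouse 5 had 96.8 CPM of Cltb, 676 CPM of Dnm1, 86.0 CPM of Ap2s1, 160.3 CPM of Ap2a1 and 120.8 CPM of Clta, each below the range of the other 11 mice. For Clta the gap was slight, since the lowest of the other mice had 121.1 CPM. The share of all genes outside that range in mouse 5 was not determined, so nothing is read from these values of 1 outlying library. In that mouse the remaining 5 members lay within the range of the others, with Cltc at 504 CPM, Ap2a2 at 189 CPM, Ap2b1 at 305 CPM, Ap2m1 at 561 CPM and Picalm at 137 CPM. Its ratio of Dnm1 to Dnm2 plus Dnm3 was 3.54, and its ratio of Cltb to Clta 0.802.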
